A study of Mus musculus with 6 samples.

Results

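Pericentral sinusoidal endothelial cells line the liver sinusoids where blood leaves them for the central vein. They were chosen by measured values, the counts of unique molecular identifiers (UMIs, 1 per captured RNA molecule) of marker genes in each cell of 6 single-cell libraries. Barcodes entered with 300 or more genes, 500 or more UMIs and no more than 30% of UMIs from mitochondrial genes. It was called endothelial when at least 3 of the 6 genes Stab2, Clec4g, Gpr182, Oit3, Kdr and Dnase1l3 were detected and at most 1 UMI was present over Clec4f, Timd4, Cd79a, Reln and Epcam, which mark Kupffer, B, stellate and biliary cells. A pericentral cell had at least 1 UMI over Wnt2, Kit and Cdh13 and 0 over Efnb2, Adam23 and Dll4, which mark the portal side. This gave 1186 pericentral cells, 9.39% of 12630 endothelial cells and 3.06% of 38697 cells kept. The 3 DMSO libraries held 111, 138 and 166 of them, and the 3 CWHM-12 libraries 43, 432 and 296.

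All libraries came from livers of wild-type male mice, 8 to 10 weeks old, with the inferior vena cava partially ligated (pIVCL), an operation that congests the liver. Osmotic pumps were placed after 2 weeks and delivered either vehicle (DMSO) or CWHM-12, which blocks integrins that contain the αV subunit, at 100 mg/kg/day, and livers were analysed after 4 weeks of treatment. Both groups carry the ligation, so no unligated liver enters any comparison. DMSO 1, DMSO 2 and CWHM-12 1 belong to the batch labelled 2024.6, and DMSO 3, CWHM-12 2 and CWHM-12 3 to the batch labelled 2024.12. The labels print no mouse identifier, so a p-value here reflects only how these libraries vary, and that variation may be technical.

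Along a sinusoid, blood runs from the portal tract to the central vein, and the endothelium changes on the way. On the central side the endothelium releases Wnt2, Wnt9b and the Wnt amplifier R-spondin 3, which keep neighbouring hepatocytes in their pericentral programme. On the portal side, endothelial cells show stronger Notch signalling, with Dll4 and Efnb2 as marks. The central-side cells adjoin the central vein, whose own endothelium shares Rspo3 and Wnt9b with them and adds vein genes such as Vwf.

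A library held 28220477 to 48100436 UMIs and 3163 to 8447 kept cells, and the pericentral cells together 4955712 UMIs, between 241571 (CWHM-12 1) and 1479771 (CWHM-12 2) per library. Their median depth was 3052 to 5568 UMIs per cell, against 2630.5 to 5536 in cells with the portal-side genes only, called periportal here. Any 2 libraries had at most 5 of 10000 barcodes in common. Of the pericentral cells, 18 had a Scrublet doublet score of at least 0.25 and were kept. A single cell of CWHM-12 2 held 848 of their 1051 haemoglobin UMIs. Free RNA was gauged in Kupffer cells, which should lack the gate genes. A Wnt2, Kit or Cdh13 UMI was found in 0.327% to 2.81% of them, at median depths of 1581 to 7091 UMIs. Among endothelial cells it was 40.8% to 57.0%, at 2881.5 to 6409 UMIs. The Kupffer cells were allowed at most 1 UMI over Stab2, Clec4g, Cd79a, Reln and Epcam. That rule leaves out cells with more free endothelial RNA, so their rate may be too low.

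The genes that chose the cells are given as a description. Cdh13, an adhesion protein of the cadherin family, stood at 248 to 685 CPM (counts scaled to a common library size) in the 6 libraries, Wnt2 at 183 to 386 and the receptor Kit at 117 to 244. The scavenger receptor Stab2 stood at 698 to 1477 CPM, a span that covers the 959 to 1128 of periportal cells, and the lectin Clec4g at 1266 to 4484, against 2905 to 5319. Both are among the genes the rule used, so their presence checks nothing about the label. Clec4f stood at 5.81 to 21.6 CPM, and Timd4, Cd79a, Reln and Epcam each at 9.17 CPM or less. The rule's edge was close to many cells. Exactly 1 UMI of the 3 pericentral genes carried 347 cells (29.3%) into the class, and 573 cells (48.3%) had 1 of the 3 genes detected, 412 (34.7%) had 2 and 201 (16.9%) had all 3. Just outside it lay 1104 endothelial cells with pericentral genes and 1 portal-side UMI. Another 3927 had pericentral genes with more than 1 portal-side UMI, and 950 had neither set.

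Rspo3 and Wnt9b, which the rule did not use, differed across these classes, as the plot of levels by cell class shows. Among pericentral cells with at least 2 gate UMIs, Rspo3 had a lowest, median and highest library of 816, 1164 and 1924 CPM. With 1 gate UMI these were 36.8, 146 and 324, and no library overlapped. Cells just outside, with 1 portal-side UMI, had 198, 397 and 1164 CPM, a higher median than the cells that 1 gate UMI had admitted. With more portal-side UMIs the median was 118, with neither set 69.5 and in periportal cells 45.8 CPM. Wnt9b had medians of 124, 2.24, 33.7, 5.92, 2.78 and 0.435 CPM in the same order. Msr1, a scavenger receptor of the portal side, ran the other way, from a median of 22.1 CPM to 74.5, 75.9, 247, 132 and 523. On all 3 genes, cells admitted by a single UMI lay nearer to the periportal median than cells with more gate UMIs did. They were also shallower, with median depths of 2111 to 4576.5 UMIs by library against 3269 to 6709.5. Lyve1, a hyaluronan receptor of sinusoids, had medians of 2903 to 4696 CPM over the 6 classes, with no such order.

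**Figure D1:**
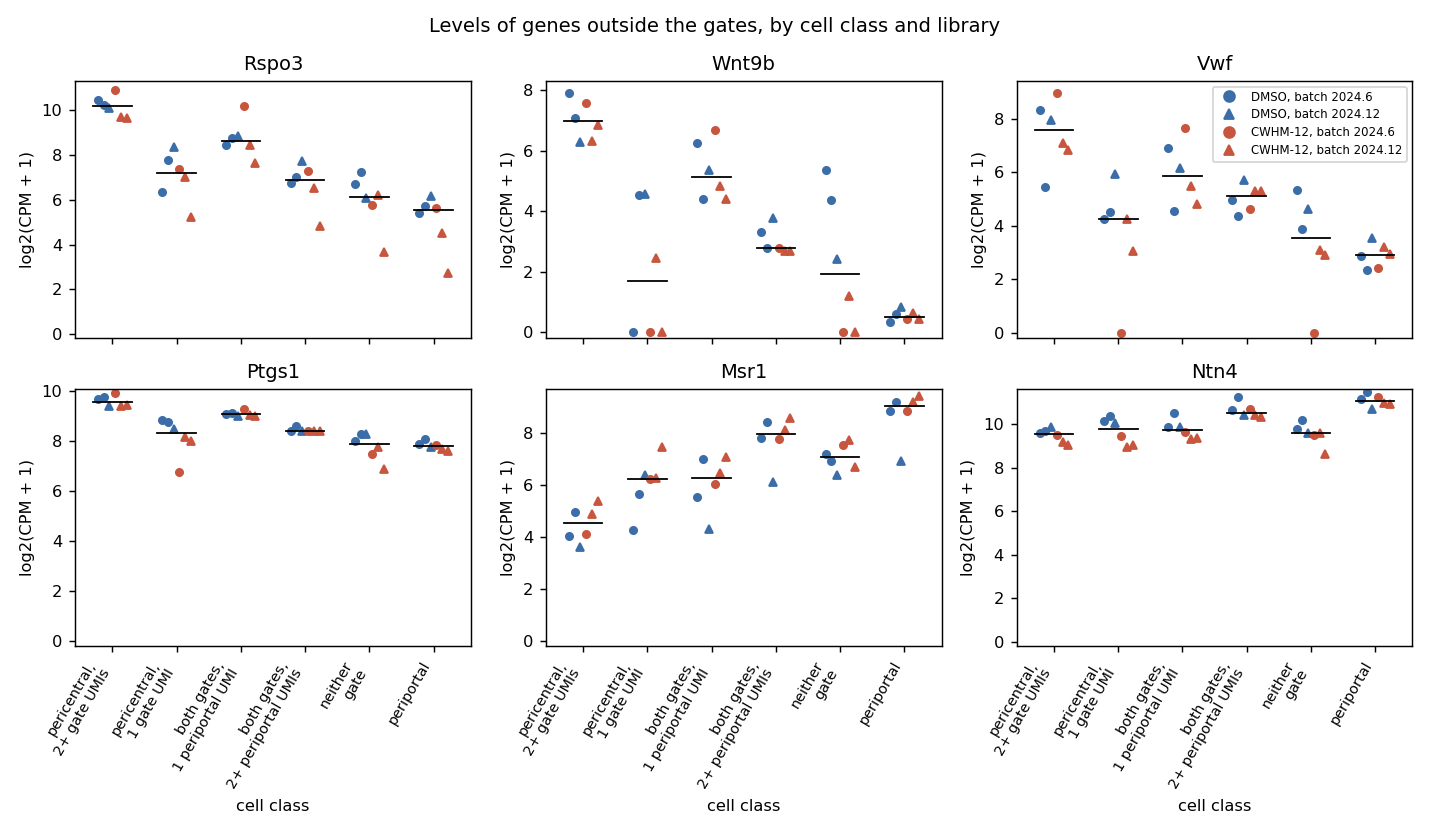
Levels of 6 genes outside the gates, as log2(CPM + 1), in 6 endothelial classes ordered from pericentral to periportal. Points are libraries (colour for group, shape for batch) and bars their medians. Rspo3 falls from a median of 1164 CPM in pericentral cells with 2 or more gate UMIs to 45.8 in periportal cells, and Msr1 rises from 22.1 to 523.

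The 3 gate genes did not mark the same cells. Cells with Cdh13 UMIs only (228 cells) had 284 CPM of Vwf (von Willebrand factor, a vein and large-vessel protein), summed over libraries, 321 of Bmp4 and 437 of Edn1. Cells with Kit UMIs only (155 cells) had 1.67 CPM of Vwf, which is 1 UMI, with 95.4 of Edn1, 330 of Esm1 and 80.3 of Rspo3. Cells with Wnt2 UMIs only (190 cells) had 37.1 CPM of Vwf and 220 of Rspo3. These sums weight the libraries unequally, so the 613 cells with 2 or 3 of the genes are given by library. They had 912, 1337 and 2101 CPM of Rspo3 (lowest, median and highest library), above the other 3 sets in all 6 libraries. Their Wnt9b was 84.0, 137 and 278 CPM, the highest of the 4 sets in 5 libraries, the exception being CWHM-12 3, where Cdh13-only cells had 140. Vwf UMIs were found in 175 pericentral cells (14.8%). Those cells carried 73.3 UMIs of the 6 endothelial gate genes per 10000, against 151.5 in the 1011 cells without Vwf. Cells with Vwf UMIs were 27.9%, 13.0% and 27.7% of the class in the DMSO libraries and 25.6%, 9.72% and 9.12% in the CWHM-12 libraries. Whether they lie in the central vein or in the sinusoid cannot be told apart here, so main results are also given without them.

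A further pair of small sets stood out by their transcripts, at limits chosen after the values were seen. Class II-rich cells, with at least 20 UMIs over H2-Aa, H2-Ab1, H2-Eb1 and Cd74 (antigen presentation to helper T cells), numbered 18 (1.52%), 2, 2 and 3 in the DMSO libraries and 2, 7 and 2 in the CWHM-12 libraries. They were 4.65% of the class in CWHM-12 1 and 0.676% to 1.81% in the other libraries. They held 4449 class II UMIs, 88.8% of the total, as the plot of UMIs per cell shows. Per 10000 UMIs they carried 42.5 of the endothelial gate genes, against 139 in the other 1168 cells. For Xcr1, Clec9a, Flt3, Itgax, Wdfy4, Naaa, Siglech and Cd209a these values were 29.4 and 0.370. Those genes are known from dendritic cells and were picked after their values were seen. Naaa gave 143 of their 434 UMIs. The set was not uniform by library. Its cells from DMSO 3 had 109 endothelial gate UMIs per 10000, near the 121 of that library's other cells, and 4 dendritic-cell UMIs. CWHM-12 1 had 3.82 per 10000 and CWHM-12 3 had 5.22, with 118 and 80 dendritic-cell UMIs. DMSO 1, DMSO 2 and CWHM-12 2 lay between, at 52.3, 41.8 and 37.8, with 43, 20 and 169. Albumin-rich cells, with at least 100 Alb UMIs, numbered 6 (0.506%), 1 in DMSO 1, 2 in CWHM-12 2 and 3 in CWHM-12 3, and held 72.6% of Alb UMIs.

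**Figure D2:**
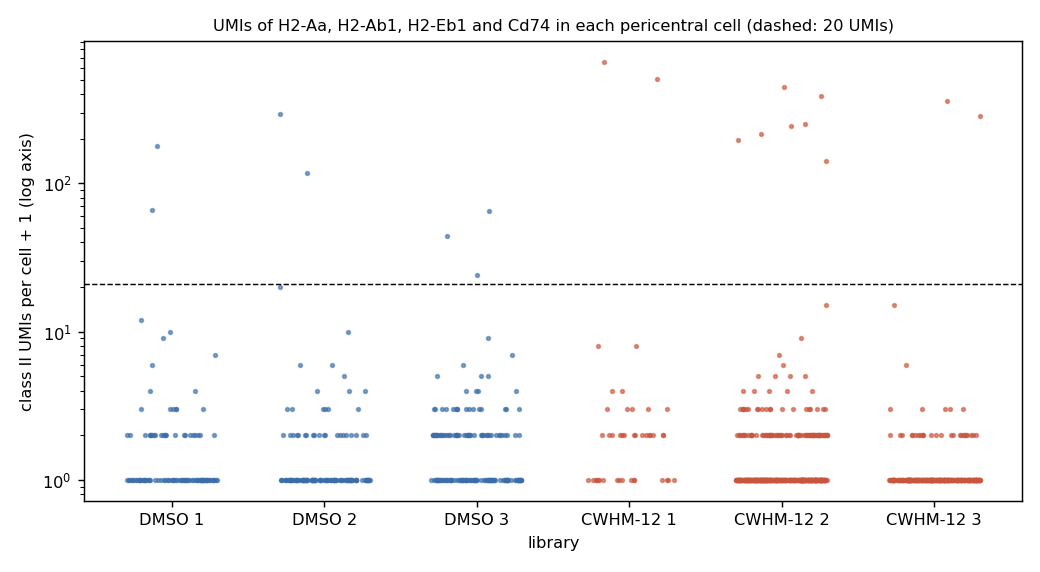
UMIs of H2-Aa, H2-Ab1, H2-Eb1 and Cd74 in each pericentral cell, plus 1, on a log axis, by library. Each point is a cell and the dashed line marks 20 UMIs. Between 2 and 7 cells of a library lie above the line and hold 51.8% to 96.3% of its class II UMIs.

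Summed counts of pericentral and periportal cells were then compared within the libraries, over all 9785 genes tested, with the 17 gate genes left out. The cells were separated by their own gate counts, so this comparison gives the genes that go with those counts in the same libraries. By the quasi-likelihood test of edgeR, 472 genes (4.82%) were higher in pericentral cells and 422 (4.31%) lower at an adjusted p under 0.05, together 9.14%, and the median difference over all genes was 0.01 on the log2 scale. Wnt9b, Cyp1b1 and Tgfb2 had the highest differences among the genes named by rule, and Slc45a4, Msr1 and Esm1 the lowest.

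Among Wnt genes the ligands differed most. Wnt9b had a lowest, median and highest library of 57.2, 97.3 and 195 CPM in pericentral cells and 0.267, 0.448 and 0.791 in periportal cells, a log2 difference of 7.65 (SE 0.24, edgeR adjusted p = 1.63e-09). Rspo3 stood at 637, 966 and 1528 CPM against 6.09, 46.0 and 73.6, a difference of 4.77 (SE 0.27, edgeR adjusted p = 2.57e-07). Neither gene's groups overlapped. Receptors differed less: of 14 Wnt genes tested, 6 passed, all higher, with a median of 0.28. Besides the ligands these were the co-receptor Lrp5 (0.62), the receptors Fzd6 (0.70) and Fzd4 (0.32), and Dkk3 (1.03), a member of the Dickkopf family. All 8 tested genes of the pericentral list were higher (median 1.77). They included the cyclooxygenase Ptgs1, which makes prostanoids, at 578, 702 and 789 CPM against 206, 224 and 278, a difference of 1.59. Lfng, which modifies Notch receptors (1.95), and Selp, the P-selectin that slows leukocytes (2.79), did not overlap either. That list rests on earlier knowledge of such cells and results of these data, so its direction is no independent evidence.

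Other secreted factors stood with the Wnt ligands. Bmp4, a growth factor of the BMP family, had 66.8, 180 and 400 CPM against 2.21, 8.64 and 30.5, a log2 difference of 4.51. Tgfb2, a TGF-β ligand, had 15.8, 23.5 and 66.4 against 0, 0.263 and 1.74 (5.59). Both were higher in all 6 libraries, with no overlap. Of 22 TGF-β genes tested, 5 were higher and 1 lower, and of 17 BMP genes 1 was higher and 2 lower, Bmp6 (-0.67) and the receptor Bmpr2 (-0.40). Edn1, the precursor of the vasoconstrictor endothelin-1, had 88.1, 266 and 397 CPM against 11.8, 47.2 and 120 and differed by 2.25. Its lowest pericentral library lay below the highest periportal library, although it was higher within each of the 6.

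Coagulation genes were higher wherever they passed: 9 of 17 tested were higher and none lower at an edgeR adjusted p under 0.05, with a median of 0.78. Vwf stood at 38.0, 160 and 386 CPM against 4.22, 6.80 and 11.1 (4.47). Entpd1, an ectoenzyme that breaks down ATP and ADP, had 35.2, 126 and 195 against 4.24, 14.4 and 25.8 (3.06). Gas6, a vitamin K-dependent ligand of the Axl receptor, had 178, 298 and 417 against 55.9, 98.7 and 138 (1.54). None of these 3 overlapped. Thrombomodulin (Thbd), which turns thrombin to anticoagulant use, had 20.2, 80.2 and 136 CPM against 15.8, 31.7 and 48.7 (1.31) and did overlap. Without the cells that hold Vwf UMIs, 7 of 16 were higher and the median was 0.29, beside 321 higher of all 9649 genes tested there.

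The remaining leading genes were a mixed group: Cyp1b1, a cytochrome P450 (7.20), the LIM homeobox gene Lhx6 (5.38), the serine protease Prss23 (4.23), the matrix proteins Fbln2 (3.66) and Fbln5 (3.51), Chn2 (3.32), Plppr5 (3.26), Samd5 (3.11) and the monooxygenase Fmo2 (3.10). Cyp1b1 had 24.2, 43.5 and 113 CPM against 0, 0.0923 and 0.801. Fbln2 overlapped through CWHM-12 3, its lowest pericentral library at 60.3 CPM, against 71.3 in the highest periportal library. Matrix genes in all had 8 higher and 3 lower of 23 tested, the basement membrane collagens Col4a1 (0.50) and Col4a2 (0.64) among the higher and the laminin chain Lama4 (-1.12) among the lower.

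**Figure D3:**
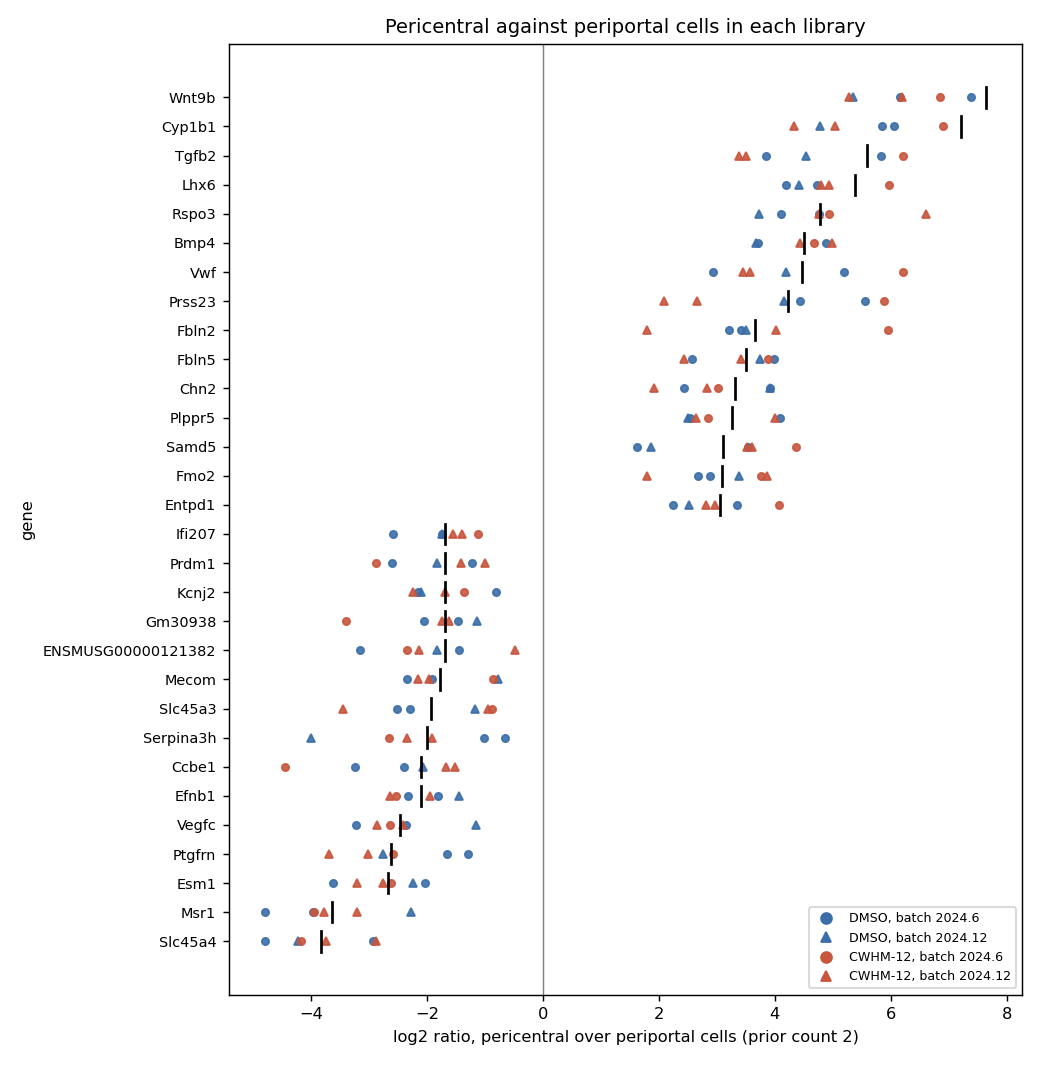
log2 ratio of pericentral to periportal CPM (prior count of 2) in each library, for the 15 highest and 15 lowest genes that passed with the same direction in all 6 libraries. Points are libraries (colour for group, shape for batch) and black ticks the edgeR estimate, which uses a smaller prior count and so lies farther out for genes near 0 in periportal cells. Wnt9b leads at 7.65 and Slc45a4 ends the order at -3.82, and no library crosses 0.

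On the lower side, Slc45a4, a transporter of the SLC45 family, had 2.69, 5.18 and 7.6 CPM against 60.2, 78.5 and 112 (log2 difference -3.82, SE 0.21, edgeR adjusted p = 2.02e-07). Msr1 had 15.8, 33.5 and 77.9 against 121, 534 and 723 (-3.65, SE 0.19, edgeR adjusted p = 1.41e-07). Kupffer cells also carry Msr1, at 607 CPM over all libraries, while their defining marker Clec4f was near 0 in both endothelial classes by the rule. Esm1, a proteoglycan of endothelium, had 17.6, 88.8 and 181 CPM against 170, 621 and 741 (-2.67), and its groups met at 170 to 181. Vegfc (-2.46) and Ccbe1 (-2.10), the lymphatic growth factor and the protein that aids its activation, were both lower in all 6 libraries. The others among the 15 lowest were Ptgfrn (-2.63), Efnb1 (-2.11), Serpina3h (-2.0), Slc45a3 (-1.92), the transcription factors Mecom (-1.77) and Prdm1 (-1.69), the potassium channel Kcnj2 (-1.69), Ifi207 (-1.68) and the unnamed genes Gm30938 (-1.69) and ENSMUSG00000121382 (-1.69). Of 9 periportal genes tested, 6 were lower (median -1.14), among them the laminin-like Ntn4 (-1.55), Ltbp4, which binds latent TGF-β (-1.14), and Btnl9 (-1.12).

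The Notch target genes Hes1 and Hey1 were lower. Hes1 had 129, 180 and 310 CPM against 252, 481 and 615 (-1.16) and Hey1 0, 1.02 and 4.15 against 6.64, 12.5 and 15.5 (-3.33), with Notch1 at -0.32. Of 14 Notch genes tested, these 3 were lower, and Lfng and the ligand Dll1 (1.49) higher. Sinusoidal identity and scavenging genes were more often lower, with 8 of 17 lower, 3 higher and a median of -0.28. The lectin-like Clec1b (-0.73), the mannose receptor Mrc1 (-0.65), the Fc receptor Fcgr2b (-0.65) and the fatty acid transporter Cd36 (-0.58) were lower. Stab1 (0.45) and the HDL receptor Scarb1 (0.68) were higher. Lyve1 did not pass (-0.20, edgeR adjusted p = 0.161), at 1099, 3527 and 6574 CPM against 1351, 4808 and 6021. Interferon-stimulated genes had 7 of 27 lower and none higher (median -0.28), and among the chemokines Cxcl9 (-1.11) and Cxcl10 (-0.67) were lower while the scavenging receptor Ackr3 (2.94) was higher.

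Of the 3 αV integrin genes tested, 1 differed by zone. Itgav, the αV subunit, had 9.42, 17.4 and 22.8 CPM in pericentral cells against 12.6, 16.6 and 21, a difference of 0.02 (SE 0.20) that did not pass. Its partner Itgb1 stood at 785, 859 and 995 against 690, 783 and 963 and did not pass (0.12), while the partner Itgb3 was lower, at 26.9, 49.2 and 62.3 against 88.5, 97.9 and 132 (-1.16). Of 7 other endothelial integrin genes, Itga3 (2.20), Itga6 (0.89) and Itga5 (0.55) were higher and Itga9 (-1.09) lower. The flow-responsive factors Klf2 (-0.19) and Klf4 (0.32) did not pass, and of 24 flow genes 2 were higher and 3 lower.

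Division transcripts were counted per cell, with no test. Cells with at least 3 UMIs over Mki67 and Top2a made up 1.20% to 6.31% of pericentral cells (median 2.61%, 32 cells) and 0.0695% to 1.23% of periportal cells (median 0.604%, 29 cells). The share was higher in pericentral cells in 5 libraries, DMSO 3 being the exception with 1.20% against 1.23%. Of 17 cell-cycle genes tested, 7 were higher and 1 lower (median 1.22), with Top2a at 17.5, 83.5 and 136 CPM against 2.21, 23 and 62.2 (1.91). With the class II-rich and albumin-rich cells left out 13 of 17 were higher and 1 lower (median 1.32). Over all 9556 genes tested there, 581 were higher and 496 lower. Without DMSO 1, 2 of 17 were higher, with a median of 1.17, beside 331 higher of all 9763 genes tested. With each cell thinned to 1000 UMIs 1 of 6 was higher, with a median of 0.041, beside 193 higher of all 6576 genes tested.

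Of the 894 genes called between the zones, 838 were also called, in the same direction, with the class II-rich and albumin-rich cells left out, where 1077 passed. Without cells holding Vwf UMIs 586 passed, 535 of them shared. Jam2 (0.60), Ccn1 (0.58), Gpm6a (0.25) and Ecm1 (0.14), all higher in the full set, no longer did. With every cell thinned to 1000 UMIs and the gates reapplied, 397 passed, 317 of them shared and 316 in the same direction, while 731 of the 894 could still be tested. Without DMSO 1 the count was 594, of which 584 were shared.

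The question the study's groups pose is what CWHM-12 changes in these cells of the congested liver. First, a difference in their share of endothelial cells was not shown by a test that ignored batch. Since a gate of a few UMIs depends on depth, every cell was thinned to 1000 UMIs. DMSO 1 to 3 then had shares of 10.1%, 11.7% and 17.1%, and CWHM-12 1 to 3 of 9.11%, 13.5% and 15.7%. The means were 13.0% ± 3.68 and 12.8% ± 3.35 (SD, n = 3 each), a difference of -0.202 percentage points (exact two-sided permutation test, p = 1; the smallest p this design allows is 0.1). Thinning left out 299 shallower endothelial cells. Within batch 2024.6 the difference was -1.80 and within 2024.12 it was -2.51 percentage points. Every thinned CWHM-12 share lay below every DMSO share of its batch. The batches hold the groups unequally and shares were higher in 2024.12. The test over all libraries therefore cannot decide whether the share differs within a batch. Unthinned, the means were 10.6% ± 3.57 and 7.87% ± 3.22 (SD, n = 3 each; exact permutation p = 0.5). In such data a smaller share and less gate RNA per cell cannot be told apart.

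Of 7937 genes tested, 1 passed the edgeR test for CWHM-12 against DMSO (0.0126%), and 331 (4.17%) had an unadjusted p under 0.05. That gene was Naaa, a lysosomal hydrolase of fatty acid amides. DMSO 1 to 3 had 6.36, 3.02 and 2.70 CPM of Naaa and CWHM-12 1 to 3 had 223, 44.5 and 34.2 (4, 2 and 2 UMIs against 53, 64 and 37), a log2 difference of 5.11 (SE 0.46, edgeR adjusted p = 0.0291). All CWHM-12 libraries lay above all DMSO libraries. Of its 162 UMIs, 143 came from the 18 class II-rich cells, and with those cells left out no gene passed (edgeR; 267 at an unadjusted p under 0.05). The call was also lost without DMSO 1, DMSO 2, DMSO 3, CWHM-12 1 or CWHM-12 2, each left out alone. Over all 18 alternatives that gave a value, its log2 difference ran from 3.80 to 5.91 and the adjusted p of Naaa from 8.8e-20 (edgeR with no filter on low counts) to 0.578 (limma voom), and 10 passed. DESeq2 on the same sums called 8 genes, all higher: Naaa, Lgals3, Plbd1, H2-Ab1, H2-Aa, H2-Eb1, Cd74 and C3.

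Several of the genes next in order had most of their UMIs in the same cells. Lgals3, galectin-3, stood at 3.18, 6.04 and 5.39 CPM against 223, 34.7 and 21.2 (log2 difference 4.53, edgeR adjusted p = 0.255), with 83.1% of its UMIs in class II-rich cells. H2-Ab1, a class II chain, stood at 114.6, 302.2 and 82.2 CPM against 1766, 432.9 and 223.5 (2.57, edgeR adjusted p = 0.59), with 90.0% there. Cells left without the class II-rich and albumin-rich sets had 30.2, 56.1 and 48.7 CPM of H2-Ab1 in DMSO and 60.9, 31.8 and 14.9 in CWHM-12 (-0.41). Plbd1 (3.69), H2-Aa (2.15), Cd74 (2.39), Alox5ap (2.42), Phf11b (2.01) and Tlr3 (1.69) were also among the 12 smallest p, without passing. C3, the complement component, had 43, 27.2 and 6.74 CPM against 122, 90.3 and 130 (2.63), with no overlap. In CWHM-12 1, 20 of its 29 UMIs lay in 1 class II-rich cell. In CWHM-12 2 and CWHM-12 3 the albumin-rich cells held 109 of 130 and 99 of 141, and with both sets left out the difference was 1.06.

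Hepatocyte transcripts moved with this comparison. Summed over Alb, Apoa1, Ttr and Serpina1c they ran from 611 to 2203 CPM in DMSO and from 1010 to 7387 in CWHM-12. Of 26 such genes tested, 25 were positive (median 1.45), at 3.06 in batch 2024.12 and -0.54 in batch 2024.6. Over all genes 51.7% were positive. Without the 2 sets, 21 of 26 were positive with a median of 0.29. The 6 Kupffer markers together had 59.5 to 101 CPM in DMSO and 53.7 to 91.9 in CWHM-12, and the 5 stellate markers 92.9 to 236 and 156 to 261. The biliary marker Krt7 was at 0 throughout. Their part in the genes below was not tested beyond leaving out the class II-rich and albumin-rich cells.

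Several endothelial genes separated the groups without passing the test, against a background of 445 genes (5.61%) with every CWHM-12 library above every DMSO library and 489 (6.16%) with every one below. The hyaluronan receptor Lyve1 had 3730, 4956 and 6585 CPM in the DMSO libraries and 3388, 2441 and 1094 in the CWHM-12 libraries (log2 difference -1.13, SE 0.41, unadjusted p = 0.0254 in edgeR). The nearest libraries, DMSO 1 and CWHM-12 1, were both of batch 2024.6, where the difference was -0.34, against -2.01 in batch 2024.12. Edn1 stood at 284.8, 333.9 and 397.7 CPM against 252.8, 168.9 and 87.7 (-1.0, SE 0.36), again with -0.28 in batch 2024.6 and -1.69 in batch 2024.12. The leptin receptor Lepr had 315.1, 294.6 and 431.4 against 223.3, 120.9 and 53.6 (-1.44, SE 0.44), with -0.44 and -2.38. All 3 were lower in both batches, by more in 2024.12, and with the class II-rich and albumin-rich cells left out Lyve1 was -1.02, Edn1 -0.94 and Lepr -1.34. The share of cells with Vwf UMIs was lowest in the CWHM-12 libraries of batch 2024.12. Without them Lyve1 was -1.18 and Lepr -1.45, and Edn1 was -0.83 with an unadjusted p of 0.162 in edgeR, against 0.0234 with them.

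Kitl, the ligand of the Kit receptor, had close values within the groups. They came from 87, 89 and 95 UMIs in DMSO and 18, 108 and 88 in CWHM-12. With so few UMIs, the closeness does not show a steady level. It had 138, 134 and 128 CPM in DMSO and 75.8, 75.0 and 81.3 in CWHM-12 (-0.77, SE 0.22, unadjusted p = 0.00843 in edgeR), with -0.83 in batch 2024.6 and -0.70 in 2024.12. In periportal cells Kitl stood at 157.5, 199.4 and 146.0 CPM against 159.3, 141.9 and 138.8 (-0.11), and the edgeR test of the difference between the zones gave an adjusted p of 0.674. Abhd6, a lipid hydrolase, stood at 98.7, 118 and 121 against 59.0, 55.6 and 51.7 (-1.06). The endosomal tetraspanin Cd63 had 54.1, 46.8 and 66.1 against 37.9, 22.9 and 18.5 (-1.21), with a like value of -1.26 in periportal cells. Ntn4 had 829, 1026 and 989.6 against 733, 569 and 553 (-0.58). Enpp6, a choline phosphodiesterase, had 98.7, 60.4 and 330 against 29.5, 118 and 116 (-1.47): the groups overlapped, but within each batch its CWHM-12 libraries were lower. Gm17167 (-1.51) was lower in all CWHM-12 libraries. Ajuba (-1.42), a LIM protein of the YAP list, overlapped through DMSO 1 and CWHM-12 1. With the UMIs of each library's top cell left out, Kitl, Abhd6, Cd63 and Ntn4 still did not overlap. In CWHM-12 1, however, Abhd6 had 14 UMIs in all and Cd63 had 9. Without the cells that hold Vwf UMIs Kitl was -0.65, Abhd6 -1.24, Cd63 -2.15 and Ntn4 -0.68. Igfbp5 (-2.46) was held by 19 cells, and in DMSO 1 1 cell had 82 of its 85 UMIs.

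On the higher side, the chemokine Cxcl10 stood at 93.9, 116 and 94.4 CPM in DMSO and 206.5, 221 and 156 in CWHM-12 (0.99, SE 0.25, unadjusted p = 0.00398 in edgeR), with 0.96 and 0.97 in the 2 batches and 0.13% of its UMIs in class II-rich cells. Sema3d, a secreted semaphorin, had 11.1, 15.1 and 9.44 against 33.7, 48.6 and 102.5 (2.23, SE 0.56), spread over 137 cells. The antiviral gene Rsad2 had 55.7, 60.4 and 37.7 against 88.5, 95.9 and 86.8 (0.96), and Socs3, a brake on cytokine signalling, 23.9, 57.4 and 59.3 against 88.5, 94.5 and 141 (1.04). All 4 had every CWHM-12 library above every DMSO library, and none passed after adjustment. For Cxcl10 that order rested on 1 cell of CWHM-12 1, which held 29 of the library's 49 UMIs. With the UMIs of each library's top cell left out, Cxcl10 was 74.8, 101 and 71.5 CPM in DMSO and 84.3, 199 and 147 in CWHM-12, and the groups overlapped. Sema3d, Rsad2 and Socs3, treated alike, kept no overlap. For Sema3d that order rested on few UMIs, 4, 7 and 4 in DMSO and 5, 66 and 105 in CWHM-12. Without the cells that hold Vwf UMIs Cxcl10 was 1.21, Rsad2 1.04 and Socs3 0.44, while Sema3d gave no value.

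**Figure D4:**
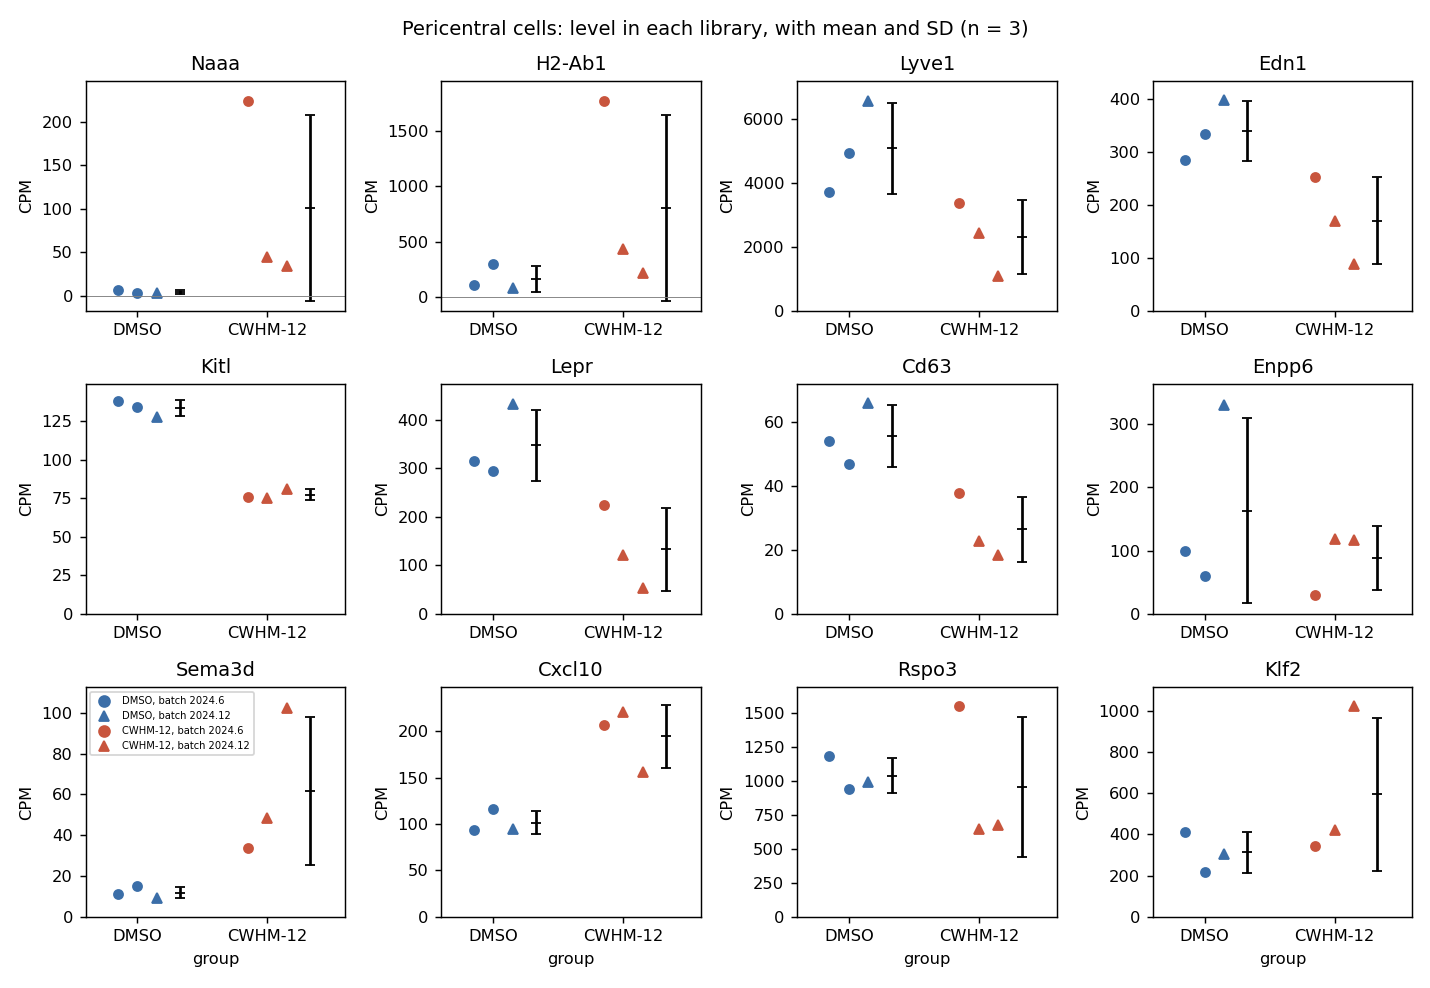
CPM of 12 genes in the pericentral cells of each library (points, colour for group and shape for batch), with the group mean and SD (n = 3). Naaa passed the edgeR test. Kitl lies at 128 to 138 CPM in DMSO and 75.0 to 81.3 in CWHM-12, and Lyve1, Edn1 and Lepr reach their lowest values in a CWHM-12 library of batch 2024.12.

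The 8 pericentral genes tested, all outside the gate, overlapped between the groups. Rspo3 stood at 1184, 935 and 992 CPM in DMSO and 1551, 642 and 674 in CWHM-12 (-0.03, SE 0.28), with opposite signs in the batches (0.56 in 2024.6, -0.59 in 2024.12). Wnt9b had 196, 101 and 68.8 against 147, 57.7 and 92.3 (0.06, SE 0.34). Of the 8 pericentral genes tested, 3 were positive (median -0.01). Thbd had 85.9, 107 and 20.2 against 75.8, 68.8 and 136 (0.97, SE 0.62), and without DMSO 3 it was -0.36. The gate genes were left in the treatment test, but they chose the cells, so only their levels are given. In DMSO these were 256, 264 and 183 CPM (Wnt2), 118, 121 and 152 (Kit) and 385, 246 and 686 (Cdh13). In CWHM-12 they were 392, 299.5 and 383 (Wnt2), 152, 201 and 243 (Kit) and 581.5, 509 and 612 (Cdh13). Wnt2, which helped choose the cells, had every CWHM-12 library above every DMSO library. Cdh13 overlapped, and the groups of Kit met at 152. Fbln2 had 770, 529 and 663 against 919, 372 and 60 (-0.57), the low value being CWHM-12 3 alone, and without the cells that hold Vwf UMIs it was -1.41.

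No αV integrin gene passed, and all 3 overlapped. Itgav had 19.1, 22.7 and 9.44 CPM in DMSO and 12.6, 16.0 and 20.3 in CWHM-12 (0.29, SE 0.50), Itgb1 845, 988 and 861.5 against 796, 873.5 and 853 (-0.10, SE 0.21) and Itgb3 27.1, 55.9 and 51.2 against 63.2, 44.5 and 47.1 (0.15, SE 0.37). CWHM-12 acts on the proteins, so these levels check no label. Klf2 had 414, 218 and 306 against 341, 423 and 1020 (0.70, SE 0.47), with the high value in CWHM-12 3, and Klf4 132, 172 and 134 against 139, 81.3 and 278 (0.17). Flow genes were split, 11 of 22 positive (median 0.02), and YAP and TAZ targets had 5 of 16 positive (median -0.15). Of 19 TGF-β genes 10 were positive (median 0.05).

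No member of any gene list passed. Medians are read beside the 0.02 of all genes, and counts of positive members beside the 51.7% positive over all genes. Early response genes, which also rise during tissue dissociation, were positive for 17 of 18 tested (median 0.43, the same with the 2 cell sets left out, and 0.19 and 0.60 in batches 2024.6 and 2024.12), with Fos at 116, 272 and 199.5 CPM against 265.5, 393 and 626 (0.92). Glucocorticoid-responsive genes were positive for 11 of 13 (median 0.34). Interferon genes were positive for 19 of 25 (median 0.32), but at 0.67 in batch 2024.6 and -0.10 in 2024.12. An unadjusted edgeR p under 0.05 was reached by 1 early response gene, 1 glucocorticoid-responsive gene and 3 interferon genes. The 16 MHC genes tested had a median of 0.21, and 14 had one of 0.01 with the 2 cell sets left out. Collagens and matrix proteins were negative for 13 of 18 (median -0.29), with opposite signs in the batches (0.35 and -0.32). Col4a1 (-0.39) and Col4a2 (-0.31) were negative in both. Vein genes (median -0.03) and cell-cycle genes (0.12) had opposite signs in the batches.

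**Figure D5:**
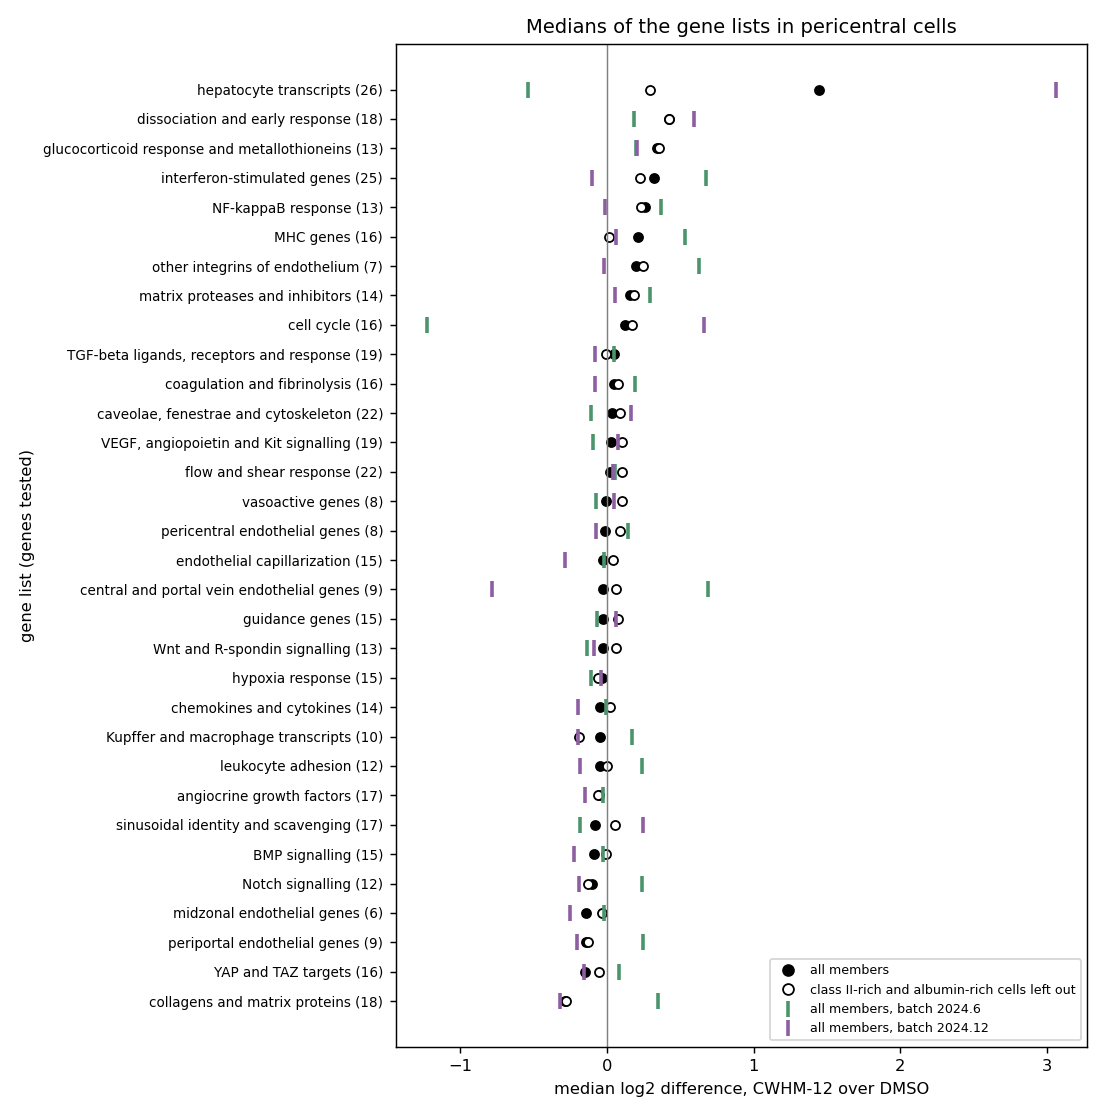
Median log2 difference between CWHM-12 and DMSO of each gene list with at least 5 tested genes (number tested in brackets) in pericentral cells. Filled circles are all cells, open circles leave out the class II-rich and albumin-rich cells, and ticks give each batch. Hepatocyte transcripts shift from 1.45 to 0.29, and early response genes stay at 0.43.

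The response of pericentral cells was set against that of periportal cells in a zone by treatment test over 10557 genes. In edgeR, 6 passed (0.0568%), all more positive in pericentral cells, and 591 (5.6%) had an unadjusted p under 0.05. They were the class II genes H2-Ab1 (2.94), H2-Aa (2.26), H2-Eb1 (2.35) and Cd74 (2.45), with Lgals3 (4.62) and Ctss, the protease cathepsin S (1.65). Without class II-rich cells none passed, with 475 at an unadjusted p under 0.05. With the albumin-rich cells left out as well, 4 others passed, Pclaf (5.49) and Ppp1r15a (1.35) more positive and Gimap3 (-5.35) and Igfbp5 (-2.87) more negative in pericentral cells. These 4 were named after their values were seen. For Edn1 (0.87, edgeR adjusted p = 0.762), Lyve1 (-0.39, 0.632) and Cxcl10 (0.65, 0.765), a difference between the zones was not shown. In periportal cells alone, edgeR called 0 of 10967 genes, with 247 at an unadjusted p under 0.05.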

How the data were processed

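The deposited values are whole-number UMI counts for each gene in each barcode, per the file headers, from the BD Rhapsody whole transcriptome assay. The submitters' processing notes name build GRCm39. Aligner and annotation were not given in the sources used here, and no coordinates were used. Livers were digested with pronase and collagenase. Hepatocytes were set to a small share of the suspension, per the labels' protocols, while the series' design text has them removed, so hepatocyte RNA depends on the preparation.

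Counts of the gated cells were summed per library, since cells are not replicates, and compared by edgeR 4.0.16 (quasi-likelihood, R 4.3.3) with TMM scaling, its filter on low counts and Benjamini-Hochberg adjustment at 0.05 over all genes. The model held batch and group for the treatment, library and zone for the zones, and library, zone, zone by batch and zone by treatment for the difference in response. Levels are CPM on TMM-scaled sizes, except across the cell classes and marker sums, where they are plain CPM. Within-batch differences use log2 CPM with a prior count of 2. Shares were compared with an exact permutation test over 20 assignments, without regard to batch. Doublet scores came from Scrublet in scanpy 1.11.5. Alternatives used DESeq2 1.42.0, limma 3.58.1 (voom with sample weights), other filters, thinned cells, left-out cell sets and left-out libraries.

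On simulated counts the treatment test recovered 7.78% of genes changed by 1 on the log2 scale and 68.9% of those changed by 2 (7599 genes). The zone test recovered 40.2% and 100% (9610 genes), and the zone by treatment test 0% and 2% (9777 genes). Unchanged genes called were 5, 7 and 0 in the same order of tests. The simulation gave every gene the same dispersion, with no batch effect and with the zones of a library independent. These rates therefore need not hold for the real counts.

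The cells and the 38 gene lists were chosen with earlier results of these data known. Genes were named by rule: for the zones the 15 highest and 15 lowest that passed with at least 20 CPM and the same direction in 6 libraries, for the treatment the 12 smallest p among genes at 20 CPM or more, for the difference in response up to 6 in each direction, plus class genes, integrins, flow genes and, in each list, the 3 members that had the smallest p. Abhd6, Sema3d, Kitl, Igfbp5 and list members beyond these 3 were named after their values were seen. The alternatives that leave out class II-rich, albumin-rich or Vwf-holding cells, or the UMIs of a library's top cell, were chosen after seeing the data.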

Additional observations from a re-analysis of the deposited data

Results flagged for a closer look

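For 6 genes the CWHM-12 response differed between pericentral and periportal cells by the zone by treatment test of edgeR. The differences, pericentral minus periportal on the log2 scale, were 2.45 for Cd74, 2.26 for H2-Aa, 2.94 for H2-Ab1, 2.35 for H2-Eb1, 4.62 for Lgals3 and 1.65 for Ctss, with adjusted p from 0.000184 to 0.0476. H2-Ab1 stood at 116.4, 239.1 and 152.6 CPM in the periportal cells of DMSO 1 to 3 and 148.5, 161.3 and 70.6 in those of CWHM-12 1 to 3. Its highest pericentral library was CWHM-12 1 (1766 CPM), where 2 of 43 cells held 96.3% of the class II UMIs. The periportal values rested on few cells too: 34 class II-rich cells (0.622%) held 77.6% of the periportal class II UMIs. With the class II-rich cells left out of both zones none of the 6 passed.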

How the results depend on the processing

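Precision is limited by 3 libraries a group and by the 43 pericentral cells of CWHM-12 1. The count of genes that passed between DMSO and CWHM-12 was 8 with DESeq2 and 162 without the filter on low counts, against 1. It was 0 with no batch term (524 genes at an unadjusted p under 0.05), with limma voom (445), with at least 2 gate UMIs (218), with at least 4 of the 6 endothelial genes (238), with 0 UMIs of other cell types (243), with cells thinned to 1000 UMIs (173), with class II-rich cells left out (267) and with albumin-rich cells left out as well (224). Leaving out each library in turn gave 0 to 1. The zone count of 894 was 1397 without the filter, 397 with thinned cells, 586 without cells holding Vwf UMIs, and 594 to 834 with each library left out. The zone by treatment count of 6 was 1 with no zone by batch term, 125 without the filter, 0 without class II-rich cells and 4 to 9 with each library left out. The cause of these changes was not tested.

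Some signs turned. For the treatment with thinned cells H2-Ab1 was -0.18, H2-Aa -0.91 and Cd74 -0.10. With at least 4 endothelial genes H2-Aa was -0.25 and Cd74 -0.18. Without class II-rich cells H2-Ab1 was -0.41, H2-Aa -0.31 and Cd74 -0.11, and with albumin-rich cells left out as well -0.41, -0.31 and -0.060. Thbd ran from -0.36 (without DMSO 3) to 2.32 (without CWHM-12 1). Lyve1 between the zones was 0.011 with thinned cells. Thinned, the zone by treatment differences were -0.065 for Lgals3, -0.64 for H2-Ab1, -0.47 for Cd74, -0.94 for H2-Eb1, -1.02 for H2-Aa and 0.97 for Igfbp5. Values of named genes under the alternatives counted as unchanged in 781 of 830 cases for the treatment and 682 of 692 for the zones. For zone by treatment it was 50 of 91. An unchanged value kept its direction and its side of the threshold. A change of sign also counted as unchanged where an uncalled main difference did not exceed its SE and moved by less than it. Only Naaa passed among these treatment genes, and most of the zone genes were named because they passed. High fractions partly follow from that choice. Of all 894 zone calls, 35.5% were also called with thinned cells and 59.8% without cells holding Vwf UMIs. The share of pericentral cells did not pass under any alternative run, with differences from -2.94 (unthinned, with 0 UMIs of other cell types) to 1.87 (without DMSO 3) percentage points (exact permutation p from 0.5 to 1).

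Replicate numbers are shared by the groups, and the labels do not say that they pair libraries. Deviations of same-numbered libraries had correlations of -0.03, -0.02 and 0.003, and differently numbered libraries across the groups -0.03 to 0.06. Batch was not removed from these deviations, so they cannot decide whether the numbers pair libraries. With the replicate block in place of batch, 0 genes passed for the treatment (407 at an unadjusted p under 0.05) and 5 for zone by treatment.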
